A study of Mus musculus with 6 samples.

Results

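Matrix metalloproteinases (MMPs), ADAMs, ADAMTS proteases and their inhibitors, the TIMPs, were followed in glomeruli of mice whose podocytes lacked Vhl. Members were all probe sets whose array annotation gives 1 symbol made of Mmp or Adam and a number (with or without a letter after it), any symbol that begins with Adamts, or Timp1 to Timp4. The rule found 124 of 45101 probe sets, which stand for 70 genes. There were 18 MMP genes on 29 probe sets, 28 ADAM genes on 46, 20 ADAMTS genes on 36 (5 of them ADAMTS-like genes) and 4 TIMP genes on 13. Another 5 probe sets carry a member's symbol among several and were left out.

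The Vhl-deleted group was 3 female mice with a podocin-Cre transgene (Pod-Cre), active in podocytes, and a floxed Vhl gene; they had been chosen for urinary albumin, tested at 4 weeks, no higher than the wild-type mean. The wild-type group was 3 female littermates. The labels describe parents with the transgene and both Vhl alleles floxed, and do not state which alleles the littermates carried. Glomeruli, the filtering units of the kidney, were taken from all 6 mice at 6 weeks with magnetic beads, and each mouse gave 1 Affymetrix array. Vhl was deleted in podocytes alone, while the arrays measure all cells of the glomerulus and any tubule carried along. In such bulk RNA, fewer cells of a type and less RNA per cell cannot be told apart.

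MMPs are secreted or membrane-bound zinc proteases that cut collagens, laminins and other matrix proteins. ADAMs sit in the membrane, and many of them release the outer parts of growth factors and receptors, while ADAMTS proteases are secreted and cut proteoglycans, procollagens and von Willebrand factor. TIMPs bind these proteases and block them. Nearly all of the proteases are made as inactive precursors, so the RNA level of a protease does not give its activity. In the glomerulus their substrates include the basement membrane between podocytes and endothelium and the matrix of the mesangium.

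VHL marks the hypoxia-inducible factors (HIF) for breakdown, and Egln3, a HIF target gene that encodes a HIF hydroxylase, had a signal of 3678 to 5098 in Vhl-deleted and 144 to 171 in wild-type arrays. Vhl itself had a signal of 606 to 619 in Vhl-deleted and 665 to 809 in wild-type arrays, and the sources do not say if the excised stretch holds its probes. Podocyte markers were bright in all 6 arrays, as with Podxl at 23771 or more and Nphs1 at 4827 or more. Wild-type replicate 3 stood apart: the mean log2 level of 19 tubule markers was 11.87, 11.88 and 12.62 in Vhl-deleted replicates 1 to 3, against 12.04, 12.34 and 10.49 in wild-type replicates 1 to 3. The mean of 14 podocyte markers was 12.81, 12.72 and 12.52 in Vhl-deleted arrays, against 12.78, 12.79 and 13.16 in wild-type arrays. Values without this array are given for several members below.

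A change below is the mean log2 of signal + 28 in the 3 Vhl-deleted arrays minus that in the 3 wild-type arrays, given with its standard error (SE). Adding 28 makes the change of a dim probe set smaller than the ratio of its signals. A probe set was kept if its mean level over all 6 arrays was in the upper 50%, about a signal of 96.4, and each gene was read from its brightest kept probe set. Signals of different probe sets cannot be ranked against each other.

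No member passed the threshold. Of 70 member genes, 28 were tested (40%), where 61.3% of all named genes on the array were. Of these 28, 17 had a positive and 11 a negative change, with a median of 0.081, against 50.9% positive and a median of 0.0043 over all 11159 genes tested. With limma and Benjamini-Hochberg adjustment over all genes, 0 of the 28 passed at 0.05, where 0.0807% of all genes did (8 higher, 0.0717%, and 1 lower, 0.00896%). At an unadjusted p under 0.05 there were 6 members, 5 higher and 1 lower, where 4.92% of all genes reached it. The 3 arrays of one group lay wholly beyond the 3 of the other for 7 of the 28 members, 6 above and 1 below, where 10.7% of all genes tested showed this (5.04% above and 5.64% below). The 6 above were Mmp2, Mmp14, Adam12, Adamts9, Adamtsl2 and Timp3, and the 1 below was Adam17. The count of members at an unadjusted p under 0.05 was 3, 2 and 5 without Vhl-deleted replicates 1, 2 and 3 in turn. It was 3, 3 and 7 without wild-type replicates 1, 2 and 3 in turn, each with 1 array fewer.

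**Figure D1:**
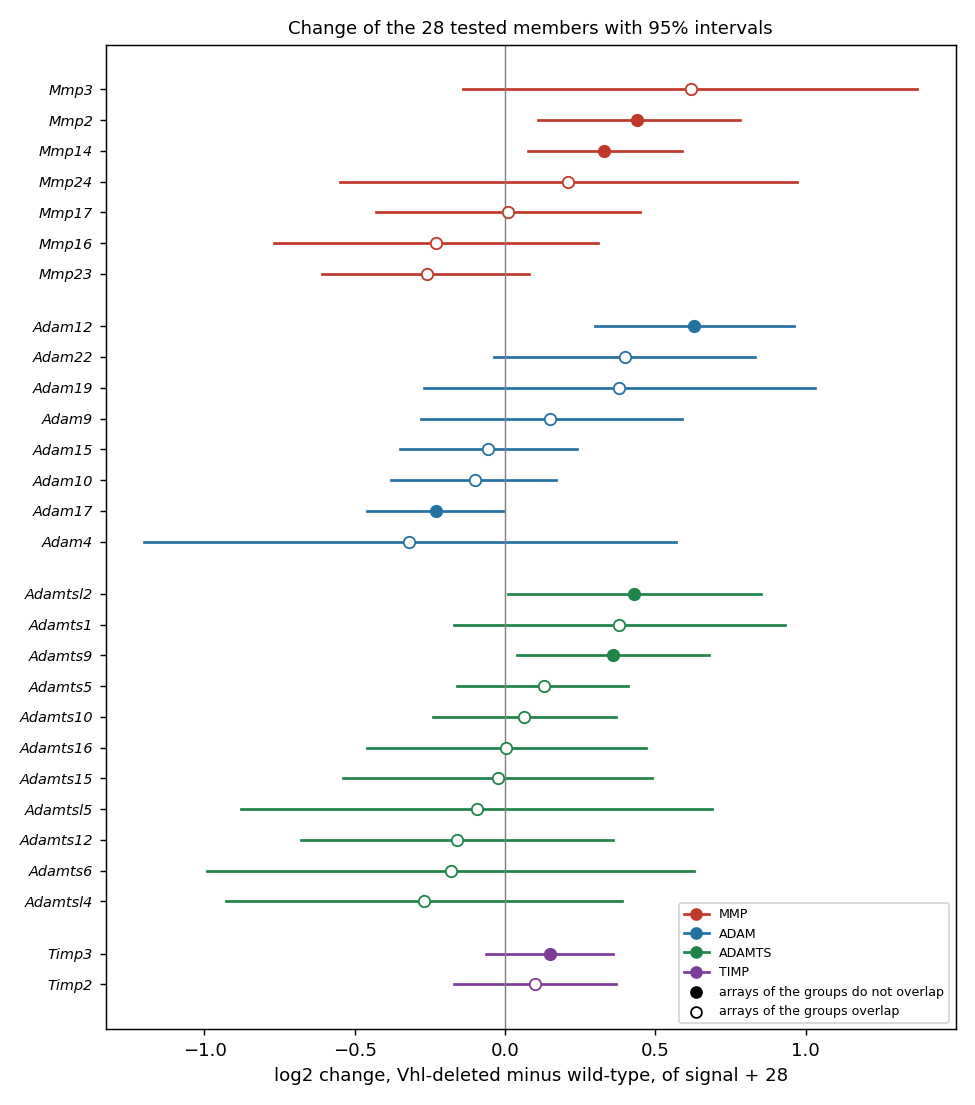
Change of the 28 tested members (log2, Vhl-deleted minus wild-type, of signal + 28; points are estimates, lines 95% intervals), by family. Filled points mark the 7 members whose arrays do not overlap between groups; the changes run from -0.32 (Adam4) to 0.63 (Adam12), and no member passed after adjustment over all genes.

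Among the MMPs, the gelatinase Mmp2 and the membrane-type Mmp14 lay higher in all 3 Vhl-deleted arrays than in any wild-type array. MMP2 cuts collagen IV and denatured collagens, and MMP14 is the cell-surface protease that activates it, in a complex with TIMP2. Mmp2, on its brighter probe set, had signals of 1564, 1681 and 1671 in Vhl-deleted replicates 1 to 3, against 1366, 975 and 1284 in wild-type replicates 1 to 3. The Vhl-deleted arrays lay close together, and wild-type replicate 2 was the lowest. Its change was 0.44 (SE 0.14, 95% interval 0.11 to 0.78, adjusted p = 0.833), and without wild-type replicate 2 it was 0.30. The second Mmp2 probe set had 1402, 1562 and 1414 in Vhl-deleted arrays, against 1081, 832 and 1007 in wild-type arrays, a change of 0.58, again with no overlap.

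Mmp14, on the brightest of 3 probe sets, had signals of 1263, 1093 and 1102 in Vhl-deleted arrays, against 955, 900 and 870 in wild-type arrays. The groups did not overlap, and the change was 0.33 (SE 0.11, 95% interval 0.076 to 0.59, adjusted p = 0.851). Leaving out any 1 array kept it between 0.27 and 0.37. A second Mmp14 probe set had 382, 498 and 364 in Vhl-deleted arrays, against 310, 270 and 258 in wild-type arrays, a change of 0.52 with no overlap. The third Mmp14 probe set lay at 137, 113 and 142 in Vhl-deleted arrays, against 131, 97.2 and 137 in wild-type arrays. There the groups overlapped, with a change of 0.089, at signals near the filter.

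The promoter of Mmp14 is shown because, of the 5 tested members whose arrays do not overlap and that have a promoter window, Mmp14 holds ACGTG, the core letters that HIF binds. The 250 bases before the annotated start (RefSeq, GRCm38.p6, chr14:54431348-54431597, plus strand) have the match in capitals. It lies on the other strand, reads CACGT here and begins 48 bases before the start.
Mmp14: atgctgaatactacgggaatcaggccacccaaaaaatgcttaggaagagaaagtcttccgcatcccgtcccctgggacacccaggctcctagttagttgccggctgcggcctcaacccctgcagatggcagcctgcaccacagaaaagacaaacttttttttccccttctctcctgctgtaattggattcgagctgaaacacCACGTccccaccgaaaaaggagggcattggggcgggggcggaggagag
Windows from 250 bases before to 50 after the start were at hand for 41 of the 70 member genes, 46 windows in all, and Mmp2, Adam12 and Adam9 had none. ACGTG was searched on both strands: 10 of the 46 windows (21.7%) held it, and 4 of the 20 windows of tested members (20.0%), where 19.6% of all 32851 windows in the table did. Adam10, Adam19 and, below the filter, Timp1 and Adamts20 were among the others that held it, while Adamts9, Adamtsl2, Timp2, Timp3 and Adam17 had no match. A match of these letters is not a binding site, and the share among members was near that of all windows.

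**Figure D2:**
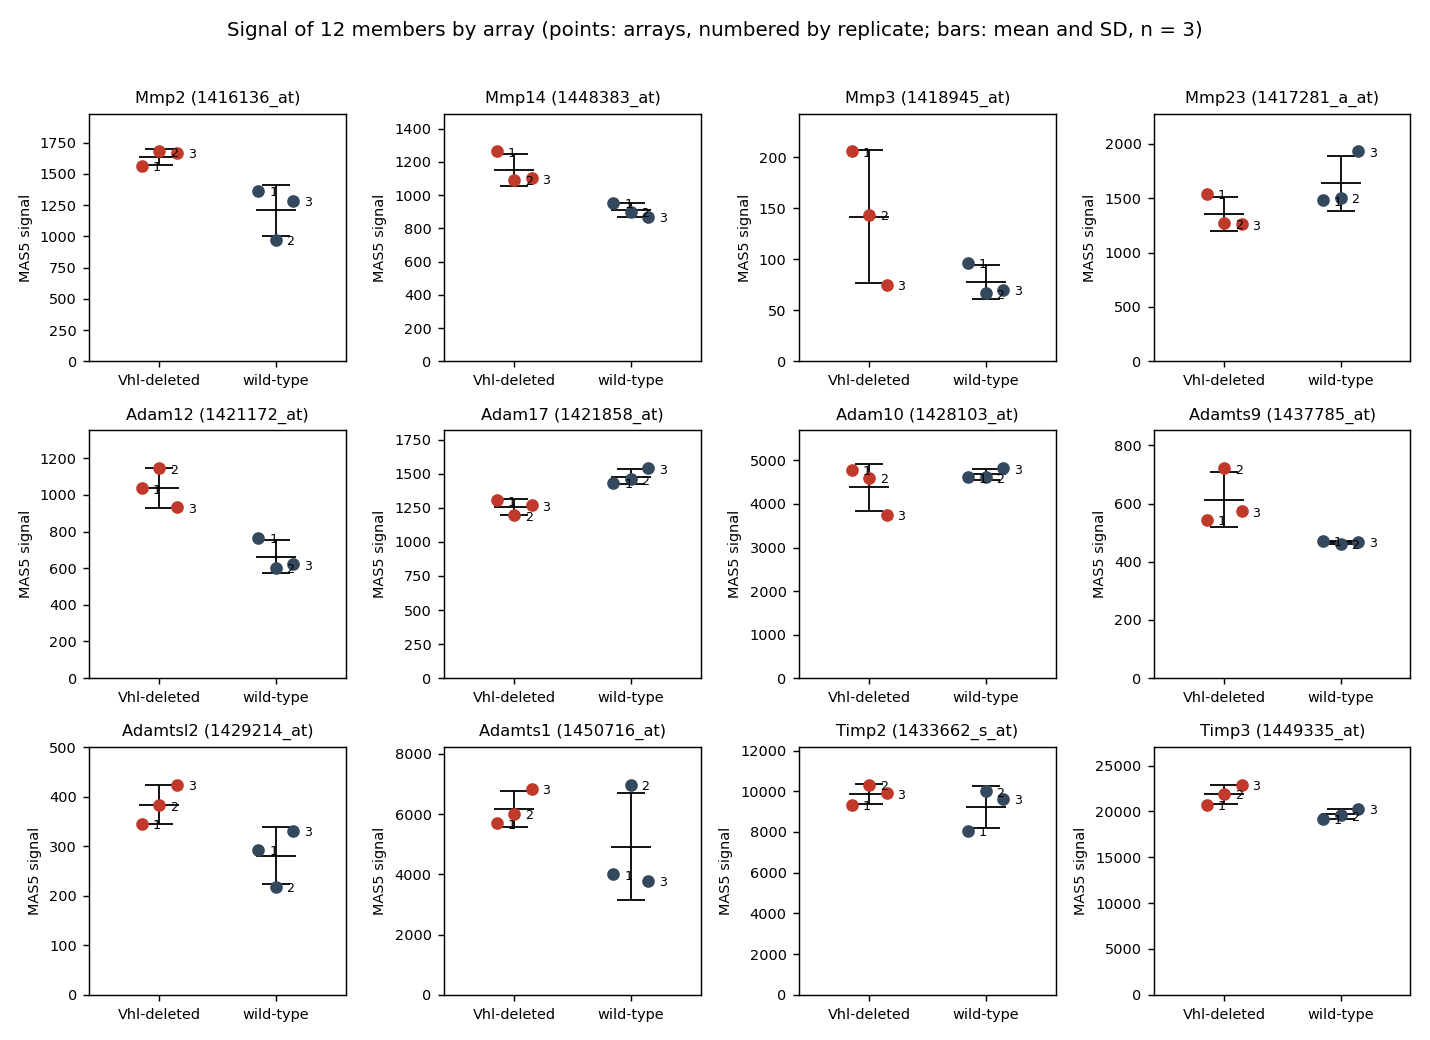
MAS5 signal (linear scale, from 0) of 12 members by array, Vhl-deleted left and wild-type right in each panel. Points are arrays, numbered by replicate, with the mean and SD (n = 3). Mmp2, Mmp14, Adam12, Adamts9, Adamtsl2 and Timp3 do not overlap with Vhl-deleted above, and Adam17 does not overlap with Vhl-deleted below.

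Mmp23, which lacks the hemopexin domain of most MMPs, lay lower in Vhl-deleted glomeruli on both probe sets, without passing. On the brighter one it had 1538, 1269 and 1260 in Vhl-deleted arrays, against 1481, 1503 and 1931 in wild-type arrays. Vhl-deleted replicate 1 overlapped the wild-type arrays, and the change was -0.26 (SE 0.15, adjusted p = 0.944). On the second Mmp23 probe set the signals were 1141, 1090 and 1116 in Vhl-deleted arrays, against 1383, 1364 and 2200 in wild-type arrays, a change of -0.52 with no overlap. Wild-type replicate 3 was the highest array on both probe sets, and without it the change of the first was -0.14.

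Mmp3, a stromelysin that cuts proteoglycans and can activate other MMPs, had 206, 144 and 75.3 in Vhl-deleted arrays, against 96.6, 66.6 and 70.0 in wild-type arrays. Vhl-deleted replicates 1 and 2 lay above all wild-type arrays and replicate 3 did not, with a change of 0.62 (SE 0.32, adjusted p = 0.944). Its signal was near the filter, and without Vhl-deleted replicate 1 or 2 it was no longer kept, while the change was 0.93 without Vhl-deleted replicate 3. The other tested MMPs were the membrane-type genes Mmp24 (0.21), Mmp17 (0.0082) and Mmp16 (-0.23), all with overlapping groups. The median of the 7 tested MMPs was 0.21, with 5 positive, and it rested on single arrays: 0.090 with Vhl-deleted replicate 1 left out, and -0.0059 with wild-type replicate 3 left out.

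The remaining 11 MMP genes had no probe set above the filter, among them the collagenases Mmp1a, Mmp1b, Mmp8 and Mmp13, the matrilysin Mmp7 and the second gelatinase, Mmp9. Mmp9, on the brighter of 2 probe sets, had 67.9, 51.2 and 73.8 in Vhl-deleted arrays, against 67.4, 39.1 and 59.2 in wild-type arrays. Mmp7 had 5.4, 10.1 and 26.9 in Vhl-deleted arrays, against 42.0, 45.4 and 15.7 in wild-type arrays. At such signals, and without the detection calls, which were not used here, neither a level nor a direction was read.

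Dim MMPs clustered in the genome. Mmp13, Mmp12, Mmp1b, Mmp3, Mmp1a, Mmp10 and Mmp8 follow each other on chromosome 9 as neighbouring protein-coding genes, with Mmp20 and Mmp7 as another pair on that chromosome. Of these 9 genes only Mmp3 was tested, and the other 8 had probe set means of at most 25.5. Most of their promoters share letters that the choice of members did not use. They are those of AP-1 sites (TGAGTCA, both strands) and of TATA boxes (TATAAA, strand of the gene). As with ACGTG, a match of these letters is not a binding site, and the TATAAA of Mmp12 lay after its annotated start. Mmp8 held neither, Mmp20 held TATAAA alone, and 1 of 2 windows of Mmp12 and of Mmp7 held neither. Windows of 4 of the genes that held both are shown, with the matches in capitals. The window of Mmp1b and the other windows of Mmp7 and Mmp12 also held both and are not shown. The 100 bases before each annotated start are from RefSeq, GRCm38.p6, all on the plus strand: chr9:7445722-7445821 for Mmp3, chr9:7502242-7502341 for Mmp10, chr9:7272414-7272513 for Mmp13 and chr9:7464041-7464140 for Mmp1a.
Mmp3: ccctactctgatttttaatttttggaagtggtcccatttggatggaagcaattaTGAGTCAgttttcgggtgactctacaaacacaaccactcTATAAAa
Mmp10: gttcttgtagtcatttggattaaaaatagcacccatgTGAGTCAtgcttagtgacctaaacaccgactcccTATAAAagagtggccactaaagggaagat
Mmp13: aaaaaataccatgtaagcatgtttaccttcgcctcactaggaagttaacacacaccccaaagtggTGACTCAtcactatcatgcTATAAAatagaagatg
Mmp1a: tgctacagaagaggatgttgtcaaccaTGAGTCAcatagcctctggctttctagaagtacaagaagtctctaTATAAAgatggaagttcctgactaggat
Of 16 MMP windows, 7 held TGAGTCA (43.8%) and 8 held TATAAA (50%), where 5.2% and 8.32% of all windows did. Most of the MMP windows belong to these 9 genes of chromosome 9, and Mmp2, Mmp9, Mmp16, Mmp17 and Mmp19 had no window. The shares thus describe mainly the genes of chromosome 9 and not the MMP family. The 7 with TGAGTCA belong to Mmp1a, Mmp1b, Mmp3, Mmp7, Mmp10, Mmp12 and Mmp13, all on chromosome 9. Mmp14, Mmp23 and Mmp24, tested members outside that cluster, held neither, and nor did Mmp11, which was below the filter. None of 10 ADAMTS and 4 TIMP windows held TGAGTCA, and 2 of 16 ADAM windows did (12.5%).

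Among the ADAMs, Adam12 had the lowest p of the 28 tested members. Its change, 0.63, lay beside that of Mmp3, 0.62, and their order turned under several alternatives, as with array weights (0.60 for Adam12 and 0.83 for Mmp3). ADAM12 (meltrin alpha) is a protease of mesenchymal and regenerating tissue that cuts insulin-like growth factor binding proteins and releases HB-EGF. On its brighter probe set it had 1035, 1146 and 931 in Vhl-deleted arrays, against 765, 601 and 621 in wild-type arrays. All Vhl-deleted arrays lay above all wild-type arrays, and the change was 0.63 (SE 0.14, 95% interval 0.30 to 0.96, a fold of 1.55), with an adjusted p of 0.528. On the second Adam12 probe set the signals were 544, 482 and 318 in Vhl-deleted arrays, against 286, 234 and 221 in wild-type arrays, a change of 0.77, again without overlap. Leaving out any 1 array kept the change on the brighter one between 0.56 and 0.73, and its lowest adjusted p over all alternatives was 0.167, with array weights.

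Adam17 and Adam10 are the main sheddases of the cell surface. ADAM17 releases tumour necrosis factor, its receptors and ligands of the EGF receptor, and ADAM10 cuts Notch. Adam17, on its brightest probe set, had 1305, 1195 and 1269 in Vhl-deleted arrays, against 1434, 1459 and 1542 in wild-type arrays. All Vhl-deleted arrays lay below all wild-type arrays, with a change of -0.23 (SE 0.10, 95% interval -0.46 to -0.0035, adjusted p = 0.944). Its 2 other probe sets had changes of -0.14 and -0.071 with overlapping groups. Adam10, on its brightest probe set, had 4784, 4598 and 3754 in Vhl-deleted arrays, against 4612, 4609 and 4824 in wild-type arrays, and Vhl-deleted replicate 3 was the low array. Its change was -0.10 (95% interval -0.38 to 0.17), the other probe sets lay at -0.23 and 0.061, and without Vhl-deleted replicate 3 the change was 0.0031.

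The other tested ADAMs overlapped between groups. Adam22, a receptor of LGI proteins without protease activity, had 432, 492 and 407 in Vhl-deleted arrays, against 336, 257 and 411 in wild-type arrays, a change of 0.40 (adjusted p = 0.944). Wild-type replicate 2 was the low array, and the change of Adam22 was 0.23 without it and 0.55 without wild-type replicate 3. Adam19 (meltrin beta), which processes neuregulins, had 293, 207 and 263 in Vhl-deleted arrays, against 132, 167 and 292 in wild-type arrays. Wild-type replicate 3 was high for Adam19, and its change was 0.38 with all arrays, 0.66 without this one and 0.16 without wild-type replicate 1. Adam9 (meltrin gamma) had 5771, 5769 and 4874 in Vhl-deleted arrays, against 4388, 4137 and 6504 in wild-type arrays. Wild-type replicate 3 was again the highest, and the change of Adam9 was 0.15 with all arrays, 0.35 without this one and 0.03 without wild-type replicate 2. Adam15 lay at -0.056 on a probe set whose name ends in _x_at, a mark of probes that can bind other transcripts. On 2 others Adam15 lay at 0.19 and 0.028. The median of the 8 tested ADAMs was 0.048, with 4 positive and 4 negative changes, and it was -0.11 without wild-type replicate 1 and 0.16 without wild-type replicate 3.

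Many of the 20 ADAMs that were not tested are known from the male reproductive tract, where they serve in sperm. Of 16 such genes, a list chosen after the values were seen, only Adam4 was tested, and the other 15 had probe set means of at most 51.2. On chromosome 8, Adam18, Adam3, Adam5, Adam32 and Adam9 are neighbouring protein-coding genes, and of these 5 only Adam9 was tested. Adam4 had 46.4, 156 and 147 in Vhl-deleted arrays, against 181, 121 and 121 in wild-type arrays, a change of -0.32 with an interval from -1.2 to 0.57. Vhl-deleted replicate 1 was far below the other 5 arrays.

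**Figure D3:**
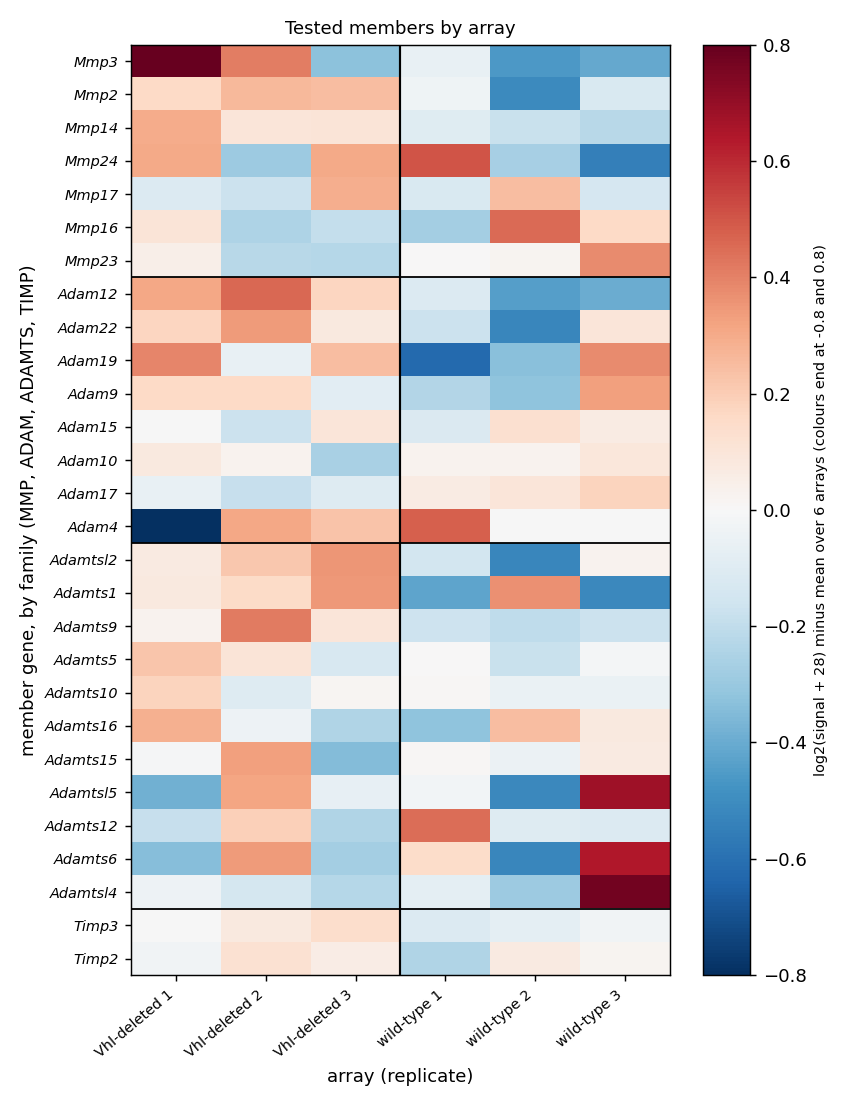
Level of each tested member (log2 of signal + 28, minus its mean over the 6 arrays) by array, with Vhl-deleted replicates left of the line and wild-type replicates right of it; rows are grouped as MMP, ADAM, ADAMTS and TIMP. Red is above and blue below the mean; wild-type replicate 3 is the highest array for 7 members, and wild-type replicate 2 the lowest for 11.

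Of the ADAMTS proteoglycanases, which cut aggrecan and versican, Adamts9 lay higher in Vhl-deleted glomeruli on each of its 3 kept probe sets. On the brightest of them it had 544, 722 and 574 in Vhl-deleted arrays, against 472, 461 and 469 in wild-type arrays. The wild-type arrays lay close together and all below, with a change of 0.36 (SE 0.14, 95% interval 0.040 to 0.68, adjusted p = 0.944), and without Vhl-deleted replicate 2 it was 0.24. On another Adamts9 probe set it had 181, 221 and 209 in Vhl-deleted arrays, against 126, 144 and 137 in wild-type arrays, a change of 0.50 with no overlap. On the remaining one the change was 0.62, and Vhl-deleted replicate 3, at 199, lay below wild-type replicate 1, at 216.

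Adamts1 and Adamts5 are neighbours on chromosome 16 and showed different patterns over the arrays. Adamts1, which cuts versican and is known to restrain angiogenesis, had 5693, 6003 and 6844 in Vhl-deleted arrays, against 4007, 6970 and 3779 in wild-type arrays. Wild-type replicate 2 was the highest of the 6, and the change was 0.38 (SE 0.23, adjusted p = 0.944) with all arrays, 0.66 without this one and 0.22 without wild-type replicate 3. A list of 12 immediate early genes, chosen after the values were seen, had a mean level of 11.77, 11.53 and 13.14 in Vhl-deleted arrays, against 11.28, 13.06 and 11.41 in wild-type arrays. Wild-type replicate 2 and Vhl-deleted replicate 3 were thus highest in their groups for both, and the part of these genes in the Adamts1 values was not tested. Adamts5, an aggrecanase, had 10902, 10030 and 8548 in Vhl-deleted arrays, against 9384, 8276 and 9238 in wild-type arrays. Its groups overlapped on all 3 kept probe sets, with changes of 0.10 to 0.25. On the brightest of them the change was 0.13 with all arrays, 0.049 without Vhl-deleted replicate 1, 0.22 without Vhl-deleted replicate 3 and 0.070 without wild-type replicate 2. Adamts4, another aggrecanase, was below the filter, at 26.1, 43.8 and 54.6 in Vhl-deleted arrays, against 52.7, 28.4 and 51.4 in wild-type arrays on its brighter probe set. Adamts13, the protease of von Willebrand factor, was not among the members found and is not analysed here.

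Adamtsl2, an ADAMTS-like protein without a protease domain that binds fibrillin, had 345, 383 and 424 in Vhl-deleted arrays, against 293, 218 and 331 in wild-type arrays. The groups did not overlap, though Vhl-deleted replicate 1 and wild-type replicate 3 nearly touched. Its change was 0.43 (SE 0.18, 95% interval 0.0096 to 0.85, adjusted p = 0.944), and it was 0.28 without wild-type replicate 2, the lowest array. Adamtsl4 (-0.27) and Adamtsl5 (-0.093) were highest in wild-type replicate 3. Of the rest, Adamts10 (0.063), Adamts16 (0.0027), Adamts15 (-0.022), Adamts12 (-0.16) and Adamts6 (-0.18) had overlapping groups. The median of the 11 tested ADAMTS and ADAMTS-like genes was 0.0027, with 6 positive and 5 negative, and it was 0.15 without wild-type replicate 3.

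Of the inhibitors, Timp2 and Timp3 were tested and neither passed. Timp3, which stays bound to the matrix and inhibits ADAM17, ADAM10 and the aggrecanases, had 20733, 21907 and 22892 on its brightest probe set in Vhl-deleted arrays, against 19184, 19556 and 20262 in wild-type arrays. The groups did not overlap there, but the change was small, at 0.15 (SE 0.09, 95% interval -0.062 to 0.36, adjusted p = 0.944). On its 3 other probe sets the changes were 0.12, 0.13 and 0.24, and the groups overlapped. Timp2, which inhibits MMPs and takes part in the activation of MMP2, had 9348, 10313 and 9892 in Vhl-deleted arrays, against 8060, 10004 and 9631 in wild-type arrays on its brightest probe set, one whose name (ending in _s_at) marks probes shared between transcripts. Its change there was 0.10 (95% interval -0.17 to 0.37), wild-type replicate 1 was the low array, and without it the change was 0.0040. With quantile normalization the change was 0.048 for Timp3 and 0.044 for Timp2. The other 4 kept Timp2 probe sets ran from -0.17 to 0.0042. One of these did not overlap, with 4145, 3734 and 4170 in Vhl-deleted arrays, against 4241, 4433 and 4944 in wild-type arrays, so probe sets of Timp2 went against each other.

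Timp1, a secreted inhibitor of most MMPs, was below the filter. It had 56.7, 51.3 and 30.9 in Vhl-deleted arrays, against 73.6, 82.1 and 70.2 in wild-type arrays. All Vhl-deleted arrays lay below all wild-type arrays, with a change of -0.49 (SE 0.23) in a fit of all genes without a filter, where its adjusted p was 0.962. Timp4 had 6.9, 50.8 and 84.7 in Vhl-deleted arrays, against 34.8, 62.1 and 37.4 in wild-type arrays on its brighter probe set, with overlap. On the other Timp4 probe set it had 5.5, 11.3 and 19.6 in Vhl-deleted arrays, against 24.2, 21.9 and 26.2 in wild-type arrays, below without overlap. Of the 72 member probe sets below the filter, 9 did not overlap (12.5%), 3 above and 6 below, where 9.54% of all such probe sets did not. In all, 42 member genes had no probe set above the filter, and their 58 probe sets had mean signals of 3.8 to 98.6. Adam28, an ADAM known from lymphocytes, had 35.0, 41.8 and 41.7 in Vhl-deleted arrays, against 27.6, 17.5 and 16.9 in wild-type arrays. Adam33 had 89.2, 105 and 114 in Vhl-deleted arrays, against 74.0, 80.1 and 86.9 in wild-type arrays. Both lay above without overlap on that probe set, and their other probe sets overlapped. Adamts20, a secreted protease of the ADAMTS9 type, had 4.5, 4.3 and 2.4 in Vhl-deleted arrays, against 38.2, 31.4 and 22.7 in wild-type arrays, below without overlap. All 3 genes were named after their values were seen, and other dim probe sets without overlap are not named. Adam33 lay near the filter, and Timp1, Timp4, Adam28 and Adamts20 further below it. For all of these the order of the arrays is given, but as with Mmp9 and Mmp7 neither a level nor a direction was read. Adamts20 was far below the filter, with an adjusted p of 0.546 in the limma fit without a filter.

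Probe sets of the same gene mostly lay on the same side. Of 13 members with more than 1 kept probe set, 6 had only positive changes (Mmp2, Mmp14, Adam12, Adamts5, Adamts9 and Timp3) and 4 only negative ones (Mmp16, Mmp23, Adam17 and Adamtsl5). Adam10, Adam15 and Timp2 had both. Over the 52 kept member probe sets, 10 lay above and 3 below without overlap (25%), where 10.3% of all kept probe sets did not overlap and 4.39% lay above. Probe sets of 1 gene measure the same RNA and are not independent.

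**Figure D4:**
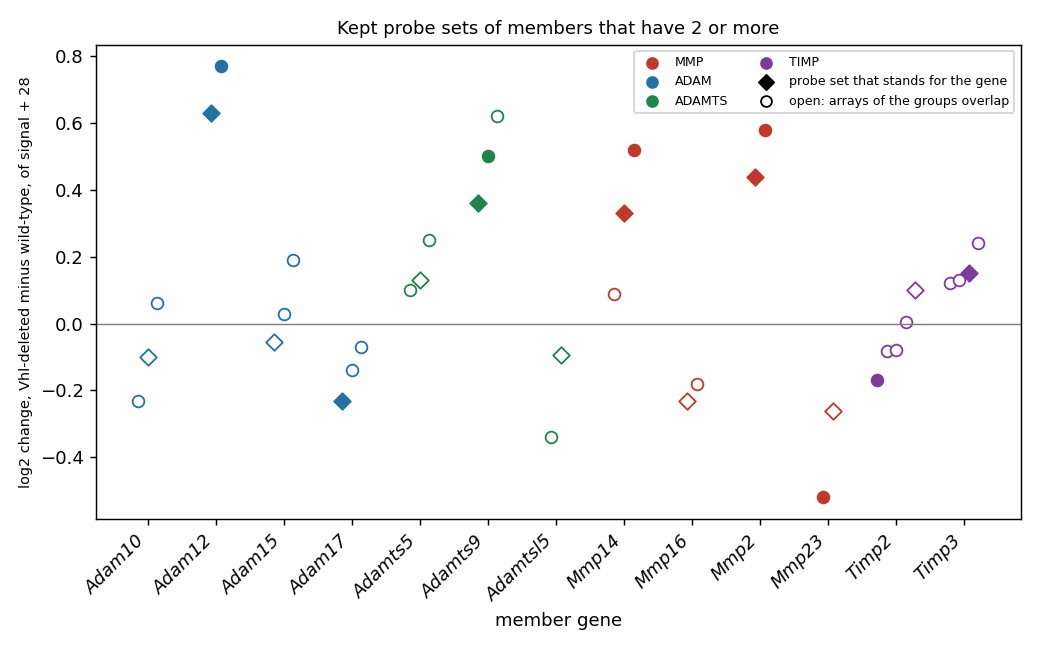
Change (log2, Vhl-deleted minus wild-type, of signal + 28) of each kept probe set of the 13 members that have more than 1. Diamonds mark the probe set that stands for the gene and filled symbols those whose arrays do not overlap between groups; Mmp2 and Adam12 are filled on both probe sets, and Timp2 has values on both sides of 0.

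Regulators and partners of these proteases were taken from a list of 25 genes, of which 18 were tested. After adjustment over all genes, 2 of the 18 passed higher and 0 lower, where 0.0717% of all genes passed higher. The median was 0.043, and 10 changes were positive, where 50.9% of all genes tested were. Bsg (basigin, also EMMPRIN), known to induce MMPs in neighbouring cells, had 11160, 9332 and 9561 in Vhl-deleted arrays, against 5093, 4673 and 4555 in wild-type arrays. Its groups lay far apart, with a change of 1.06 (SE 0.11, adjusted p = 0.0354). Pcsk6, a proprotein convertase known to cut the propeptides of ADAMTS proteases, had 7340, 7080 and 6303 in Vhl-deleted arrays, against 1275, 1261 and 1836 in wild-type arrays. Its change was 2.24 (SE 0.16, adjusted p = 0.00595). Both genes were known from earlier results of these data when the list was made. Furin (0.054), Pcsk5 (-0.041) and Pcsk7 (-0.063), the other convertases of the list, and the membrane-anchored MMP inhibitor Reck (-0.10) had overlapping groups. The tetraspanin Cd9, an ADAM17 partner, lay at 0.29 (adjusted p = 0.877).

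Other extracellular proteases and their inhibitors had 0 of 12 tested genes past the threshold. The cathepsins Ctss (0.50, adjusted p = 0.815) and Ctsk (0.53, adjusted p = 0.833) had the lowest p of that list, and in both the Vhl-deleted arrays lay above the wild-type arrays. The plasminogen activator genes Plat (0.083) and Plau (-0.37, 95% interval -1.6 to 0.86) overlapped. Serpinf2, the plasmin inhibitor, also overlapped, at 0.43. Among 23 tested substrates, 17 changes were positive and 0 passed; the median was 0.19. The laminin gene Lamb1 (0.57, adjusted p = 0.343) and the proteoglycan gene Bgn (0.42, adjusted p = 0.633) had the lowest p, followed by Tgfa (-0.45, adjusted p = 0.729), an EGF receptor ligand that ADAM17 releases.

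Markers of immune, mesangial and parietal epithelial cells had mostly positive changes, where 50.9% of all genes tested were positive. Of the markers of any list 0 passed, and their part in the members' values was not tested. Of 11 tested immune markers, 10 had a positive change and 0 passed; their mean level was 9.28, 9.34 and 9.66 in Vhl-deleted arrays, against 9.11, 8.94 and 8.68 in wild-type arrays, without overlap. Cd74 (1.02) and H2-Eb1 (0.99) had the largest changes of the immune list. Lyz2, Fcgr3, Cd68 and Adgre1 overlapped between groups, and the other tested immune markers lay above. The lymphocyte markers Cd3e and Cd79a and the myeloid marker Itgam were below the filter. Of 10 tested mesangial and smooth muscle markers, 9 had a positive change and 0 passed. The mean of the 10 was 11.46, 11.47 and 11.64 in Vhl-deleted arrays, against 11.14, 11.40 and 11.47 in wild-type arrays, with overlap. Cnn1 of that list was below the filter. Of 7 tested parietal epithelial markers, 6 had a positive change and 0 passed. Their mean was 8.82, 8.80 and 9.26 in Vhl-deleted arrays, against 8.86, 9.10 and 8.08 in wild-type arrays, with overlap. That mean was low in wild-type replicate 3 alone, and wild-type replicates 1 and 2 lay above Vhl-deleted replicates 1 and 2. Endothelial markers were mixed, with 9 positive and 5 negative changes, and the erythroid marker Alas2 lay at -0.40. All 19 tested tubule markers had a positive change, but their mean level was low in wild-type replicate 3 alone, and wild-type replicates 1 and 2, at 12.04 and 12.34, lay above Vhl-deleted replicates 1 and 2, at 11.87 and 11.88. Of 14 podocyte markers, 11 had a negative change, and wild-type replicate 3 had the highest mean level of these markers. Without overlap were 4 of the 14, where 10.7% of all genes tested did not overlap. Lmx1b (-0.53), Foxc2 (-0.58) and Plce1 (-0.57) lay below and Cdkn1c (0.48) above. Adjusted in the fit for each array's mean tubule marker level, the changes were 0.49 for Mmp2, 0.32 for Mmp14, 0.63 for Adam12, 0.38 for Adamts9, 0.51 for Adamtsl2, -0.21 for Adam17 and 0.15 for Timp3, and none passed. Without wild-type replicate 3 the change was 0.49 for Mmp2, 0.30 for Mmp14, 0.59 for Adam12, 0.36 for Adamts9, 0.55 for Adamtsl2, -0.20 for Adam17 and 0.17 for Timp3.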

How the data were processed

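The values deposited by the authors are MAS5 intensities, linear and 1 per probe set for each array; MAS5 is named in the submitters' processing notes, with no version. In the files every array has a mean of 500 once the lowest and highest 2% are left out, and the medians are 94.6 to 107.5. No pair of arrays was identical. Probe sets were named from the array annotation through Entrez numbers in a RefSeq table (all 124 member probe sets matched), and those with several symbols or none were not tested. Near-copies such as Mmp1a and Mmp1b can share probes.

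Log2(signal + 28), where 28 is about the 25th percentile of the deposited values, was fitted for 11159 genes with limma 3.58.1 in R 4.3.3 (intensity trend, 7.08 degrees of freedom) and Benjamini-Hochberg adjustment; every adjusted p is from limma. In 5 simulated runs for Vhl-deleted against wild-type (11159 genes), 200 genes per run were changed 1.5-fold, 2-fold or 4-fold. Noise was independent between genes. The fit called 21.2% of genes changed 1.5-fold, 49.9% changed 2-fold and 87.9% changed 4-fold, and 2.94% of calls were false. Such shares depend on how many genes change and how strongly. They may be lower where as few genes pass as in these data. The labels call the arrays biological replicates, and their number limits the precision. The members and lists were chosen with earlier results of these data known. The rule names, by family, members that pass, the 3 of lowest p, the 2 of highest signal, those with kept probe sets in both directions, and a fixed set; from each other list, the genes that pass and the 3 of lowest p. Other named genes were chosen after their values were seen. Alternatives changed scaling, pseudocount, filter, probe set, variance model, weights, block, covariate and threshold, and left out each array.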

Additional observations from a re-analysis of the deposited data

How the results depend on the processing

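In all 20 alternatives 0 members passed, and the lowest adjusted p of a member was 0.167. Of the 17 named members tested, 14 kept their direction in every alternative that gave them a change (18 for most, 17 for Adam19 and Adamtsl2, 15 for Mmp3). Adam15 turned to 0.055 with the mean of kept probe sets, and was -0.13 to 0.015 with 1 array left out. Timp2 turned to -0.046 with the mean of kept probe sets, and Adam10 was -0.17 to 0.0031 with 1 array left out. The count of members at an unadjusted p under 0.05 (6) was 11 probe sets when each kept probe set was fitted on its own, 10 with array weights, 3 with the replicate block, and 2 to 7 with 1 array left out. The median of all tested members (0.081) was 6.8e-05 without a filter and 0.015 to 0.14 with 1 array left out. For MMPs the median (0.21) was -0.0084 without a filter, 0.33 in the upper 30% of probe sets, 0.020 with array weights, 0.047 with the tubule covariate and -0.0059 to 0.23 with 1 array left out. For ADAMs (0.048) it was 0.17 with array weights and -0.11 to 0.16 with 1 array left out. For ADAMTS genes (0.0027) it was 0.24 in the upper 30% and 0.019 to 0.15 with 1 array left out, and for TIMPs (0.12) it was 0.0068 without a filter and 0.068 to 0.16 with 1 array left out. Of all genes, 8 passed higher and 1 lower. The higher count was 13 with every kept probe set, 30 with array weights, 31 with the tubule covariate, 15 at a threshold of 0.10, 1 with the replicate block and 1 to 13 with 1 array left out. The lower count was 0 with median scaling, the mean of kept probe sets, no trend or the replicate block, 3 with array weights or a threshold of 0.10, 4 with the tubule covariate and 0 to 1 with 1 array left out. Fits without a filter or in the upper 30% test more or fewer genes. Those with 1 array left out can do so too, as for Mmp3, and the other causes were not tested. The groups share replicate numbers, but the labels name no pairs, so the numbers were not taken as pairs. Deviations of same-numbered arrays from their group means correlated at -0.02, -0.41 and -0.51. With 3 arrays per group, such correlations cannot decide whether arrays were paired. Signal limits what can be read for the 42 members with no probe set above the filter.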
